A study of Homo sapiens with 2 samples.

Results

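A set of 10 entries of a human miRNA array, whose short sequences have been linked to mitochondrial or ribosomal RNA, was chosen by name from 2549 miRNAs. The 6 entries that have been reported with mitochondrial RNA were hsa-miR-1973, hsa-miR-4461, hsa-miR-4463, hsa-miR-4484, hsa-miR-4485-3p and hsa-miR-4485-5p. The 4 entries that have been described as ribosomal RNA-like were hsa-miR-663a, hsa-miR-3648, hsa-miR-3687 and hsa-miR-7641 (hsa stands for human and is left out from here on). The RNA came from exosomes, small vesicles shed into the medium, of FaDu cells, a line of human hypopharyngeal squamous cell carcinoma. One culture had received an NC control plasmid lentivirus (oe-NC) and the other a lentivirus for overexpression of the long noncoding RNA HOTTIP (oe-HOTTIP), as the labels give it, and the methods name plasmid transfection. Each group had 1 array, so no difference had a replicate check and no p-value was computed. The title and treatment of each array named 1 group and its free-text description named the other, and the titles were followed. The arrays are therefore called oe-NC-labelled and oe-HOTTIP-labelled, and all directions below are reversed if the descriptions hold instead.

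Mitochondria carry their own genome, with a 12S and a 16S ribosomal RNA, and the nuclear genome holds many inserted copies of it. A miRNA entry annotated inside such a copy can share its letters with the abundant mitochondrial transcript. The cytoplasmic ribosome holds 18S, 5.8S and 28S RNA, which are cut from a 45S precursor whose spacers are discarded, and 5S RNA, which is made separately. Fragments of ribosomal and mitochondrial RNA are common in small RNA preparations, and a hybridization probe reads any labelled RNA that pairs with it. Canonical miRNAs are cut from hairpins by Drosha and Dicer and pair with targets through a seed near their 5′ end.

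Of the 10 entries, 6 had a mature sequence in the RefSeq tables (GRCh38.p14). They are shown because the entries were chosen for a reported link to mitochondrial or ribosomal RNA. No mitochondrial or ribosomal RNA was aligned to these sequences, so their letters alone show no such link. They are given 5′ to 3′, with the seed (bases 2 to 8) in capitals:
miR-4485-3p: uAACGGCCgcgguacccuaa
miR-1973: aCCGUGCAaagguagcaua
miR-4463: gAGACUGGgguggggcc
miR-4484: aAAAGGCGggagaagcccca
miR-3648: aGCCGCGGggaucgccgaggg
miR-663a: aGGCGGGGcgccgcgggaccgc

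The hairpin of miR-4485 is shown because its arms gave opposite results. Its 57 bases were listed at chr11:10508270-10508326 on the minus strand, with the 3p arm in capitals (bases 31 to 50):
MIR4485: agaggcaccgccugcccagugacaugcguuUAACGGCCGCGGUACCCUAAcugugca

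The loci of both 16S-like entries lay inside annotated copies of the mitochondrial 16S gene. MIR4485 lay within MTRNR2L8 (chr11:10507887-10509176), and the mature miR-1973 (chr4:116299750-116299768, plus strand) within MTRNR2L13 (chr4:116298860-116300322), both annotated as pseudogenes. The last 8 bases of the MIR4485 hairpin, from the final base of its 3p arm on, matched the first 8 bases of miR-1973 at 7 positions. miR-3648 had 2 loci on chromosome 21. MIR3648-1 (chr21:8208473-8208652) lay inside the 45S precursor gene RNA45SN2, with 978 bases between it and the 18S gene RNA18SN2, in the spacer that precedes 18S. MIR3648-2 (chr21:8986999-8987178), from which the mature sequence above was read, overlapped no other annotated gene. The other entries with a locus lay in genes that are not ribosomal or mitochondrial by annotation. MIR4463 (chr6:75428407-75428473) overlapped FILIP1 and the lncRNA LOC101928540, MIR4484 (chr10:125819740-125819822) overlapped UROS, and MIR663A (chr20:26208186-26208278) overlapped the lncRNA MIR663AHG. The gene table lists no exons, so exonic and intronic positions were not separated. All 6 sequences had different seeds. Their GC content ran from 47.4% in miR-1973 to 90.9% in miR-663a, with a median of 68.2%, against 52.2% over the 2248 miRNAs of the array that had a sequence. Over the 218 of these that were detected on both arrays, the median was 61.0%. Of the 6, 5 were above the array's median of 52.2%, and 5 were shorter than its median length of 22 bases.

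Intensities are in scanner units with the background subtracted, averaged over the spots of each probe and then over probes. Errors of miRNAs are SDs over spots pooled within probes, which are technical and leave out differences between probes. Detection was taken from the flag that the scanner software sets per miRNA. Accordingly, 4 of the 10 entries were detected on the oe-NC-labelled array and 7 on the oe-HOTTIP-labelled array, against 12.9% and 15.3% of all 2549 miRNAs. miR-4485-3p, miR-4485-5p, miR-3648 and miR-7641 were detected on both. miR-1973, miR-4463 and miR-4484 were detected on the oe-HOTTIP-labelled array alone, and miR-4461, miR-663a and miR-3687 on neither. The negative control spots averaged 3.87 ± 2.37 (SD, 976 spots) and 3.45 ± 2.21 (SD, 975 spots), and their highest spots reached 10.7 and 10.2. For comparison between the arrays, the intensities were scaled to the 90th percentile of the 261 miRNAs that both arrays detected, 279.9 on the oe-NC-labelled and 439 on the oe-HOTTIP-labelled array. All log2 differences are given for the oe-HOTTIP-labelled minus the oe-NC-labelled array after this scaling. Each array received 200 ng of RNA, and the scaled intensities compare relative signal within the RNA loaded. Neither the number of exosomes nor the amount of an RNA per exosome was measured.

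**Figure D1:**
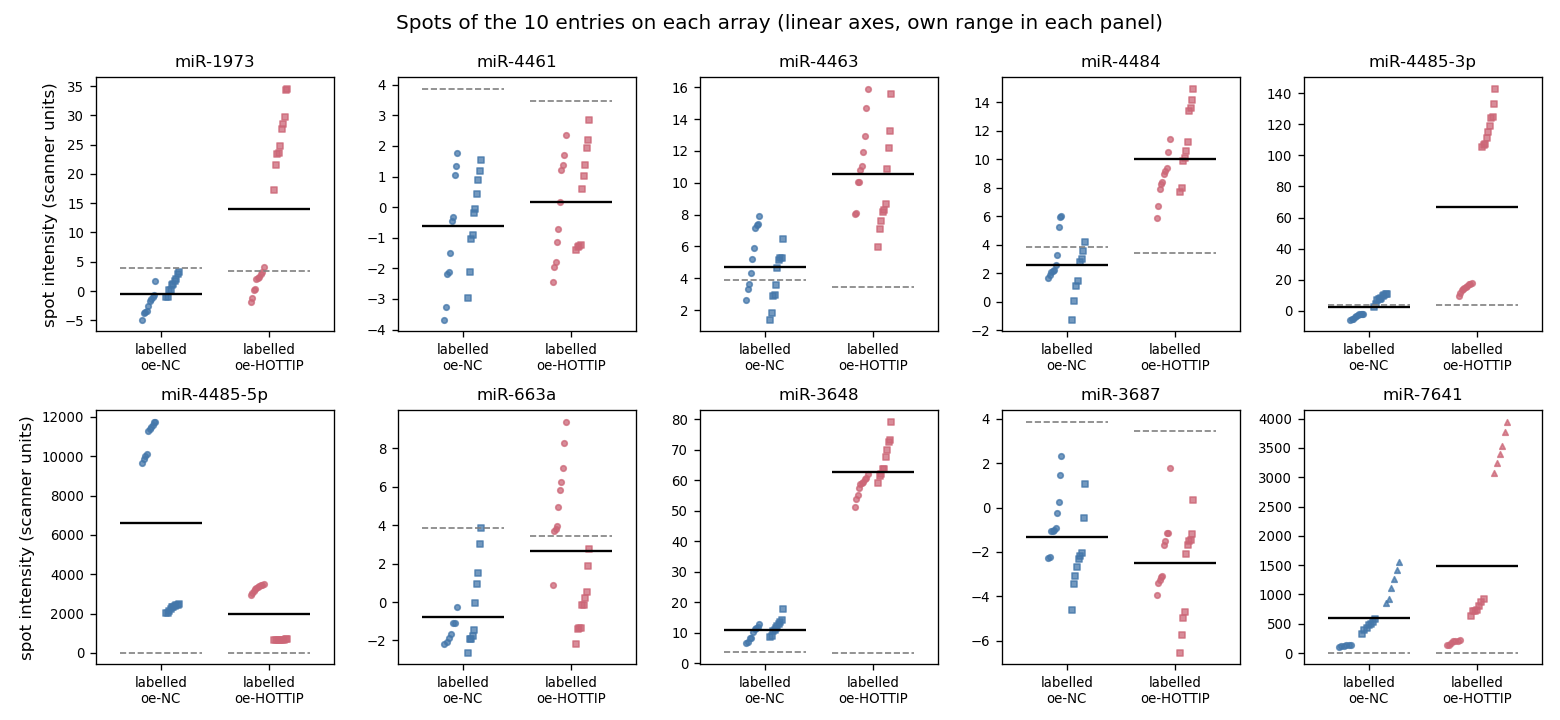
Each panel plots the spot intensities of 1 entry in scanner units on both arrays, with its own linear axis. Symbols mark the probes, black lines the mean over probes and dashed grey lines the mean of the negative control spots. miR-4485-5p is the entry whose spots are lower on the oe-HOTTIP-labelled array in both probes, while miR-4461 and miR-3687 stay under the negative controls on both arrays.

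The entry that was lower by more than 2-fold was miR-4485-5p, the 5p arm of the 16S-like hairpin. Its intensity was 6579.9 ± 615 (SD, 20 spots) on the oe-NC-labelled array and 1976 ± 140 (SD, 18 spots) on the other. Its first probe ran from 9656 over a median of 11313 to 11752 on the former and from 2949 over 3328 to 3515 on the latter. For its second probe these values were 2013, 2324 and 2462, against 640.2, 666 and 719. Within each probe all spots of the oe-HOTTIP-labelled array were below all spots of the oe-NC-labelled array, before and after scaling. The log2 difference was -2.39 with a spread of 0.17 over spots, or 5.23-fold lower, and the probes gave -2.38 and -2.41 separately. Of the 261 miRNAs detected on both arrays, 12 had a larger decrease. Without any scaling the difference was -1.74, although the 90th percentile was 0.65 higher on the log2 scale.

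The opposite arm of the same hairpin was higher. miR-4485-3p had an intensity of 2.29 ± 2.26 (SD, 20 spots) on the oe-NC-labelled array and of 66.8 ± 8.92 (SD, 20 spots) on the oe-HOTTIP-labelled array. Only 1 of its 20 spots was well above background on the former, whereas 19 of 20 were on the latter. One probe ran from -5.79 over a median of -2.86 to -1.71 against 9.64, 15.1 and 17.7, and the other from 2.34 over 8.02 to 11.02 against 105, 117 and 143. The spots of neither probe overlapped between the arrays. The log2 difference of 4.21, with a spread of 1.43, rested on a mean under the negative controls on 1 array and measures no exact fold. Even the brighter probe averaged 7.92 on that array, with 1 of 10 spots well above background. With detection set at over 50% of the spots well above background the difference became a lower bound of 2.92 on the log2 scale, and with detection over the mean plus 2 SD of the negative controls one of 2.61. Normexp with an offset of 50 gave 0.48, which is under 2-fold.

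The arms of this hairpin thus differed in opposite directions, with the 5p arm measured well above background on both arrays and the 3p arm on 1. The distance between their log2 differences is therefore not given as a value. There were 7 hairpins with both arms detected on both arrays, and 3 of these had arms of opposite sign (miR-4485, miR-151a and miR-31). Of the 7, all but miR-22 had an arm not over the mean plus 2 SD of the negative controls on at least 1 array. miR-4485 was the one of the 7 with arms past 2-fold in opposite directions, a call that normexp with an offset of 50 did not give. No test of this difference could be made with 1 array per group.

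**Figure D2:**
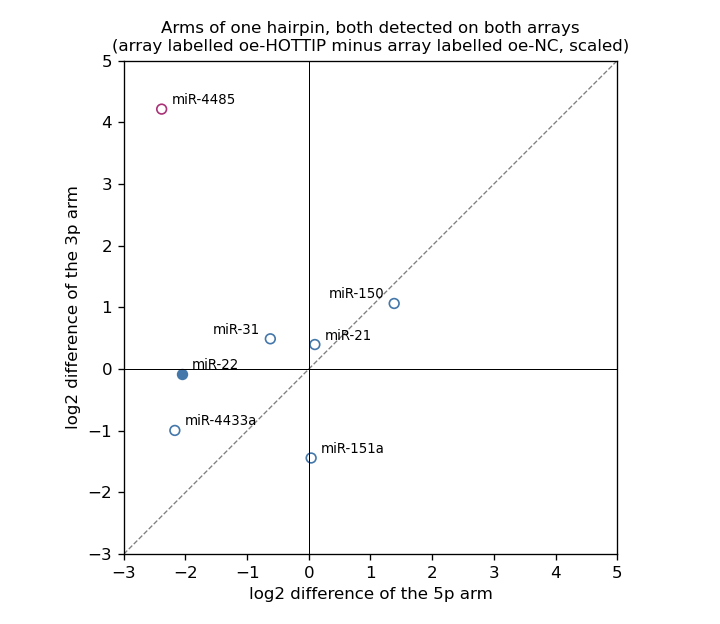
The log2 difference of the 5p arm (x axis) is plotted against that of the 3p arm (y axis) for the 7 hairpins with both arms detected on both arrays, oe-HOTTIP-labelled minus oe-NC-labelled, scaled; the dashed line marks equal differences, and open circles mark hairpins with an arm not over the mean plus 2 SD of the negative controls on at least 1 array, whose distances are not exact. miR-4485, an open circle, lies to the left of 0 for its 5p arm and above 0 for its 3p arm.

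miR-1973, the other 16S-like entry, went with the 3p arm of miR-4485 and not with the 5p arm. Its intensity was -0.55 ± 1.72 (SD, 20 spots) on the oe-NC-labelled array and 13.99 ± 4.16 (SD, 20 spots) on the oe-HOTTIP-labelled array, where 10 of 20 spots were well above background. These 10 spots were those of 1 probe, which ran from 17.2 over 26.2 to 34.6 against -1.11, 1.09 and 3.18. The second probe stayed at 1.46 ± 1.98 (SD, 10 spots) and overlapped between the arrays. As the entry was not detected on 1 array, its fold is a lower bound against the lowest detected signal of that array or its own signal there, whichever was higher. This bound was 9.13-fold. The lowest detected signal, 0.98, was itself under the negative controls, and with a floor of 5.32, the signal at which 50% of neighbouring miRNAs were detected, the bound was 1.68-fold.

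The remaining entries reported with mitochondrial RNA were dim. miR-4463 had intensities of 4.71 ± 1.81 (SD, 20 spots) and 10.6 ± 2.84 (SD, 20 spots), with 7 of 20 spots well above background on the oe-HOTTIP-labelled array, and a bound of 1.43-fold. miR-4484 had 2.59 ± 1.79 (SD, 18 spots) and 9.99 ± 2.14 (SD, 20 spots), with 4 of 20 spots well above background, and a bound of 2.46-fold, which was 1.20-fold with the higher floor. The spots of 1 of the probes of miR-4484 did not overlap between the arrays, whereas both probes of miR-4463 overlapped after scaling. miR-4461 stood at -0.63 ± 1.70 (SD, 20 spots) and 0.18 ± 1.68 (SD, 20 spots). It was not detectable on either array and has no fold.

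Among the ribosomal entries, the clearest difference was that of miR-3648, which has 1 of its 2 annotated loci in the 45S spacer. Its spots ran from 6.81 over a median of 11.2 to 17.8 on the oe-NC-labelled array and from 51.4 over 61.1 to 79.2 on the oe-HOTTIP-labelled array, with means of 10.9 ± 2.49 (SD, 19 spots) and 62.6 ± 5.11 (SD, 20 spots). No spot overlapped between the arrays, before or after scaling. Before scaling, the spot ranges over all probes of an entry did not overlap for 1 of the 4 entries detected on both arrays, miR-3648. The same held for 27.2% of the 261 miRNAs. Probe by probe, both probes of miR-4485-5p, miR-4485-3p and miR-3648 were without overlap before scaling, whereas the dimmest probe of miR-7641 overlapped. A share of all miRNAs without overlap probe by probe was not computed. The 27.2% is for ranges over all probes of an entry, so it cannot be set beside these probes. The log2 difference was 1.87 with a spread of 0.35, or 3.65-fold higher, and the probes gave 1.92 and 1.82. Of the 261 miRNAs, 13 had a larger increase. On the oe-NC-labelled array, however, only 11 of the 19 spots of miR-3648 were well above background. Its mean there was close to the highest negative control spot of 10.7. Normexp with an offset of 50 gave 0.24, which is under 2-fold.

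miR-7641, whose sequence is known from 5S ribosomal RNA, was bright on both arrays and did not reach 2-fold. Its mean over 3 probes was 592 ± 162 (SD, 19 spots) on the oe-NC-labelled array and 1483 ± 189 (SD, 20 spots) on the oe-HOTTIP-labelled array, which gave 0.67 on the log2 scale (spread 0.44). However, its probes disagreed. The brightest ran from 850.4 over 1189 to 1546 against 3073, 3463 and 3946, without overlap after scaling, and gave 0.91. The middle probe had means of 462 and 771 and gave 0.088, and the dimmest had 127 and 184 and gave -0.11. The spots of both of these overlapped between the arrays after scaling. The difference of miR-7641 thus depended on which probe was read.

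miR-3687 and miR-663a were not detected. miR-3687 had -1.34 ± 1.57 (SD, 19 spots) and -2.50 ± 2.03 (SD, 20 spots), under the negative controls on both arrays. miR-663a, annotated inside its own host lncRNA, had -0.76 ± 1.82 (SD, 17 spots) and 2.64 ± 2.08 (SD, 20 spots). One of its probes averaged 5.41 on the oe-HOTTIP-labelled array, and none of its spots was well above background. The spots of this probe ran from 0.88 to 9.39 there, against -2.20 to -0.27 on the oe-NC-labelled array, without overlap before or after scaling. Those of its other probe overlapped. Spots can thus be without overlap in an entry that was not detected. miR-1908-5p and miR-6787-5p share the seed of miR-663a, GGCGGGG. miR-1908-5p was detected on neither array, and miR-6787-5p was detected on the oe-HOTTIP-labelled array alone. Its intensities were -0.66 and 7.51, with a bound of 4.90-fold and no bound with the higher floor, and none of its spots was well above background.

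**Figure D3:**
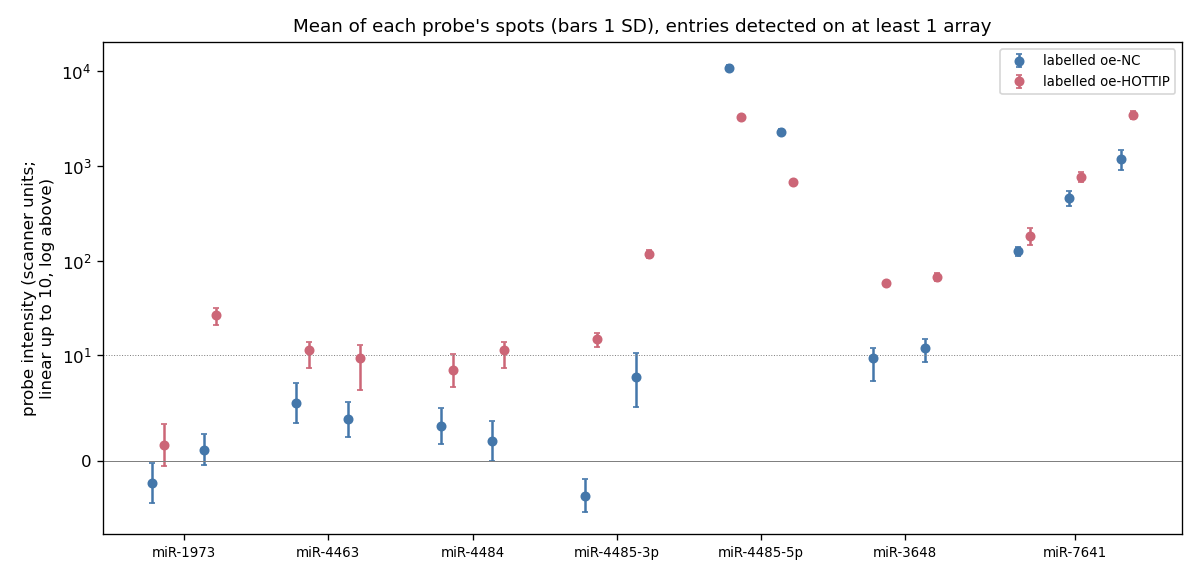
The mean intensity of each probe (points, bars 1 SD over its spots) is plotted for the 7 entries detected on at least 1 array, on an axis that is linear up to 10 scanner units and logarithmic above. Both probes of miR-4485-5p are lower on the oe-HOTTIP-labelled array, both probes of miR-3648 are higher, and of the probes of miR-1973 only 1 leaves the background.

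Taken as a list, 2 of the 4 entries detected on both arrays were at least 2-fold higher on the oe-HOTTIP-labelled array (miR-4485-3p and miR-3648), against 18.0% of the 261 miRNAs, and 1 was at least 2-fold lower (miR-4485-5p), against 21.1%. Their median log2 difference was 1.27, against 0.024 over the 261. Of the 3 entries with a bound, 2 passed 2-fold (miR-1973 and miR-4484), against 83.7% of the 129 miRNAs detected in the same way, and with the higher floor none of the 3 did, against 30.2%. The counts from bounds were thus no higher than over all miRNAs, and the shares among entries detected on both arrays rest on 4 entries. With differences and bounds together, 4 of the 7 entries detected on at least 1 array were higher, against 33.9% of 457 miRNAs, and 1 was lower, against 25.2%.

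**Figure D4:**
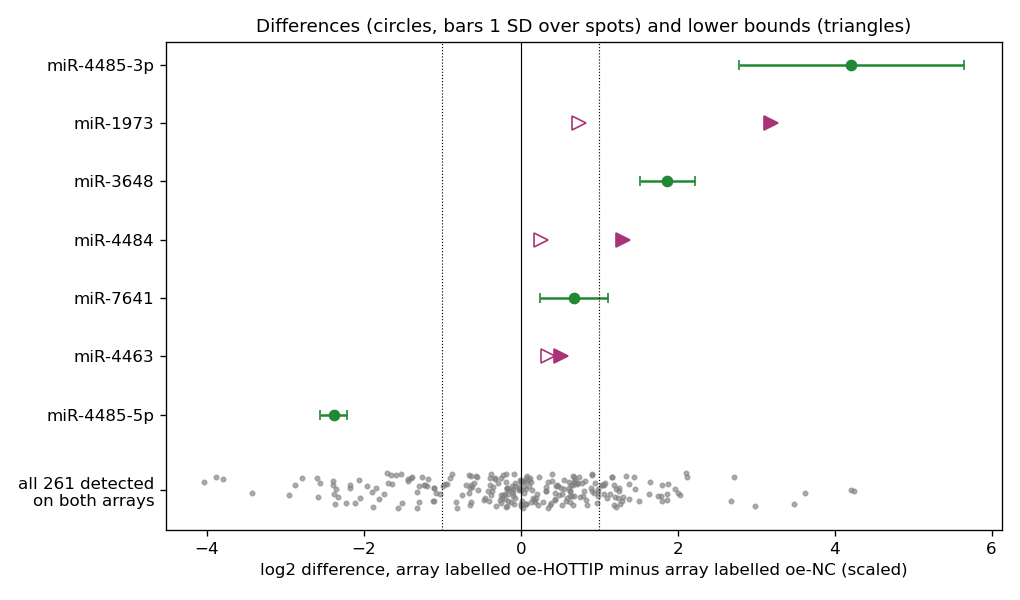
The log2 difference, oe-HOTTIP-labelled minus oe-NC-labelled array after scaling, is plotted for the entries detected on both arrays (circles, bars 1 SD over spots) and as lower bounds for those detected on 1 (filled triangles, open with the higher floor), above all 261 miRNAs detected on both (grey). miR-4485-3p and miR-3648 lie past 2-fold on the right and miR-4485-5p at -2.39 on the left; dotted lines mark 2-fold.

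Related lists gave the following values. miR-6724-5p, annotated in several copies near the 45S genes, had intensities of 10.99 ± 2.69 (SD, 18 spots) and 27.3 ± 4.86 (SD, 20 spots), which gave 0.66 on the log2 scale (spread 0.44). miR-663b, named as a paralog of miR-663a, was detected on neither array. Of 8 miRNAs that are encoded in the nucleus and have been described in mitochondria, 4 were detected on both arrays, and 1 of these, miR-1275, was past 2-fold (1.19 on the log2 scale, spread 0.43). miR-378a-3p, miR-494-3p and miR-21-5p had log2 differences of 0.52, -0.20 and 0.098. The 4 tRNA-like entries, miR-1260a, miR-1260b, miR-7975 and miR-7977, were detected on both arrays with log2 differences of 0.91, 0.82, 0.14 and 0.65, none past 2-fold. Of 9 entries derived from small nucleolar RNA, none was detected on both arrays. miR-664b-5p and miR-3651 were detected on the oe-HOTTIP-labelled array at 8.18 and 5.86, with bounds of 4.02-fold and 3.83-fold, and with the higher floor neither had a bound. Differences between these lists and the 10 entries could not be tested.

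The epithelial identity of FaDu cells was checked against miRNA markers. miR-200c-3p, miR-141-3p, miR-200b-3p, miR-205-5p and miR-31-5p were detected on both arrays and miR-203a-3p on neither, and the intensities of these 6 summed to 527 and 632. Of 5 blood cell markers, miR-142-3p was detected on neither array. The other 4, miR-451a, miR-486-5p, miR-144-3p and miR-223-3p, were detected on both, with log2 differences of -0.46, -1.75, -0.33 and 0.69. The 5 markers summed to 2277 and 2609, most of it from miR-451a at 2233 ± 869 (SD, 10 spots) and 2552 ± 346 (SD, 14 spots). miR-122-5p, a liver and serum marker, was detected on both arrays at 8.99 and 14.8, with a log2 difference of 0.064. The epithelial and blood cell markers detected on both arrays had median log2 differences of -0.62 and -0.40, and miR-486-5p alone among them was past 2-fold (-1.75). Their part in the differences of the 10 entries was not tested.

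The authors' table of normalized log2 values gave the opposite directions, because its columns followed the other array. Across miRNAs, Spearman's rho of the oe-NC column was 0.77 against the scanner output labelled oe-NC (261 miRNAs) and 1.00 against that labelled oe-HOTTIP (388 miRNAs). In its oe-NC and oe-HOTTIP columns miR-4485-5p stood at 9.06 and 11.3, miR-4485-3p at 3.73 and 0.72, miR-3648 at 3.61 and 1.99, and miR-7641 at 8.75 and 7.49. miR-1973, miR-4463 and miR-4484 were above the floor in the oe-NC column alone, at 1.46, 1.05 and 0.95. The contrast between the arms of miR-4485 was present in the table as well, with each arm turned round, since it was made from the same arrays.

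**Figure D5:**
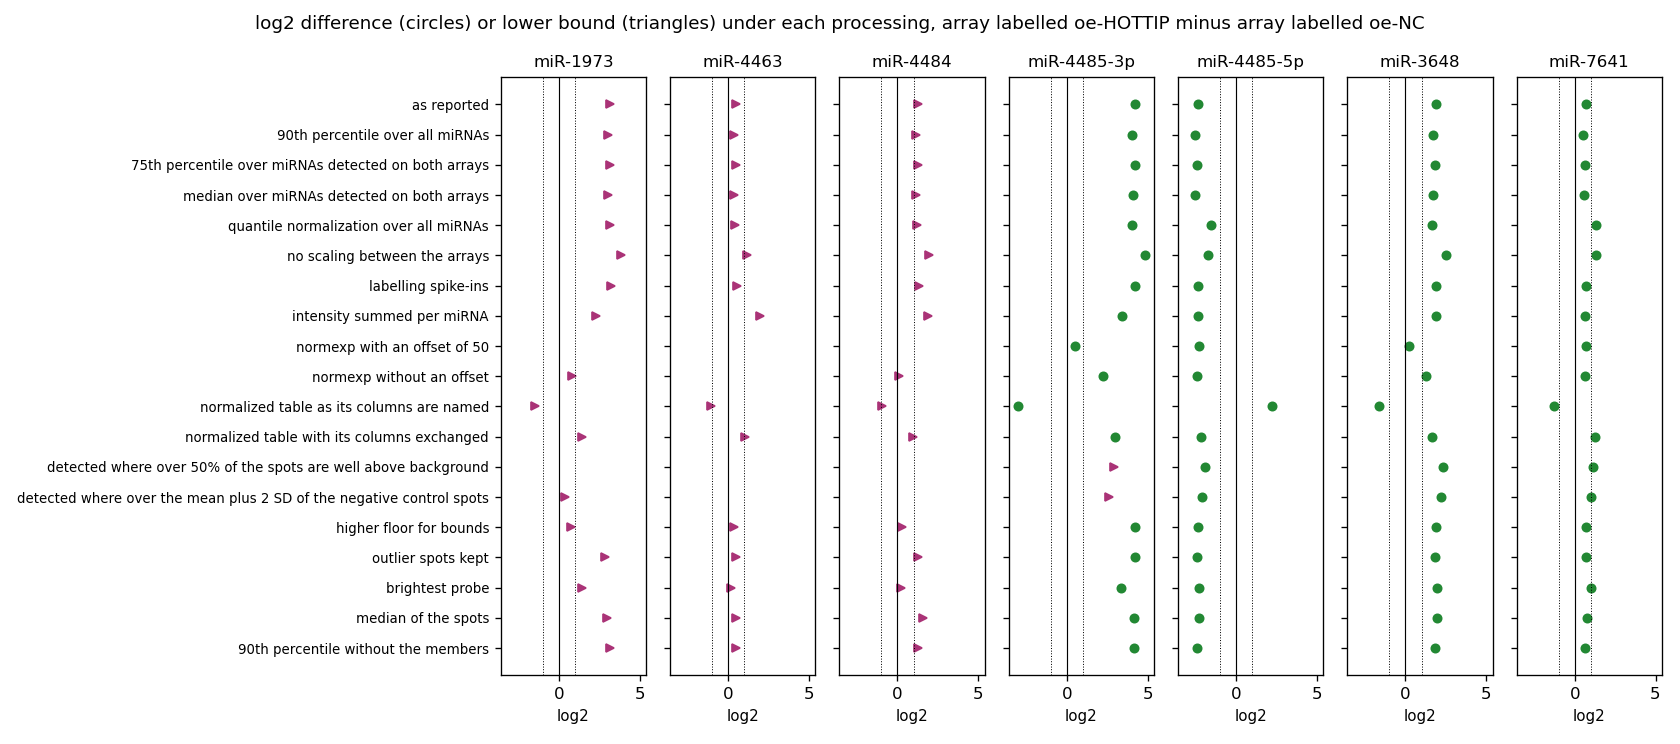
For the 7 entries with a value, the log2 difference (circles) or lower bound (triangles), oe-HOTTIP-labelled minus oe-NC-labelled, is plotted under each way of processing; dotted lines mark 2-fold, and a missing symbol means that no value could be given. miR-4485-5p stays between -2.56 and -1.53 except where the columns of the normalized table are taken by their names, and there all 7 entries change sign. Triangles for the normalized table rest on an assigned value in the column at its floor and are no measured bounds.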

How the data were processed

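The authors deposited, per array, the scanner output of Agilent Feature Extraction (10.10 in the submitters' processing notes, 11.5.1.1 in the file headers), with flags and an intensity per spot from which background was subtracted. They also deposited normalized values on a log2 scale (GeneSpring, 90th percentile). Each array received 200 ng of RNA. The precision is limited by 1 array per group.

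Control spots and outlier spots were left out and spots were averaged per probe and probes per miRNA. Spot SDs were pooled within probes and combined on the log2 scale as relative errors. Differences were set against the 2-fold threshold of the methods. The entries were chosen by name, the comparison lists by function and shared seeds, and all are named where detected. Of 5 tRNA-like entries, 4 were analysed here. The entries, lists and alternatives were chosen with earlier results of these data known. The summary was tested on simulated arrays, for brighter miRNAs and with detection held the same on both arrays. That test did not cover bounds or dim entries. Normexp was run on median spot signals. Normexp was fitted with limma 3.58.1 in R 4.3.3, the other steps were run with pandas 2.3.3 and numpy 2.4.6 in Python 3.11.15, and figures were drawn with matplotlib 3.10.9.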

Additional observations from a re-analysis of the deposited data

How the results depend on the processing

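Over 17 alternatives, leaving aside the normalized table read by its column names, miR-4485-5p was past 2-fold lower in all 17 (-2.56 to -1.53 on the log2 scale), miR-3648 past 2-fold higher in 16 and miR-4485-3p in 16, as a bound in 2 of these. Both stayed under 2-fold with normexp and an offset of 50, at 0.24 and 0.48. The 17 include the normalized table with its columns exchanged, which was turned to follow the scanner output. They also include the higher floor, which cannot alter an entry detected on both arrays. These alternatives are therefore no separate checks of direction for such entries. miR-7641 passed 2-fold in 5 of the 17 (0.50 to 1.35). The bounds of miR-1973, miR-4484 and miR-4463 passed 2-fold in 12 of 15, 10 of 14 and 3 of 13 alternatives that gave a value. These counts include the normalized table with its columns exchanged, at 1.46, 0.95 and 1.05, which are assigned values. With normexp and an offset of 50, 0 entries were higher and, of all miRNAs, 8 in place of 155, and the median log2 difference of the entries detected on both arrays was 0.36. There were 2 higher with normexp without an offset (53 of all miRNAs), 2 with detection over the mean plus 2 SD of the negative controls (80) and 2 with the higher floor (86). Without scaling 6 entries were higher (223 of all miRNAs) and the median was 1.92, against 0.67 over all miRNAs detected on both arrays. Quantile normalization and the summed intensity gave 5 higher each (143 of all miRNAs in either case). In the normalized table read by its column names, 1 entry was higher and 5 were lower (104 and 103 of all miRNAs), the median was -1.44, and the values were -1.46 (miR-1973), -1.05 (miR-4463), -0.95 (miR-4484), -3.01 (miR-4485-3p), 2.20 (miR-4485-5p), -1.62 (miR-3648) and -1.26 (miR-7641). In either reading of the table, the values of miR-1973, miR-4463 and miR-4484 take the column at the floor as 0 on the log2 scale. They are therefore no measured bounds. The columns of the table run opposite to the scanner output, and for the other changes the cause was not tested. The 90th percentile without the 10 entries was added after seeing the data and moved no call. No paired analysis was possible because only 1 array stands for each group. Signal over background limits the dim entries.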
